A study of Mus musculus with 4 samples.

Results

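The 10 genes described here encode the enzymes, and an enzyme partner, that macrophages use to turn arachidonic acid into prostaglandins, thromboxane and leukotrienes. They are Pla2g4a, Ptgs1, Ptgs2, Tbxas1, Hpgds, Ptges, Alox5, Alox5ap, Lta4h and Ltc4s, chosen by gene symbol as the core of this pathway. All 10 were found among the 15575 genes of the deposited table, and all 10 passed the filter on low counts. RNA was taken from adherent peritoneal cells of male C57BL/6 mice aged 8 to 12 weeks. The AGEs group was given advanced glycation end products, here bovine serum albumin (BSA) modified with dehydroascorbic acid (DHA), and the BSA group was given the unmodified protein. Either protein was injected intravenously (10 mg/kg/day). Injections began 24 h ahead of thioglycollate (TG), an irritant that recruits monocytes and macrophages into the peritoneal cavity, and both groups received TG. Cells were collected 72 h after TG and kept if they adhered within 2 h. Each group had 2 libraries, called AGEs 1, AGEs 2, BSA 1 and BSA 2 below, which the study describes as biological duplicates; how many mice went into a library is not stated. The p-values therefore measure the spread between these libraries, which may be technical in part.

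Eicosanoids are short-lived lipid signals made on demand from arachidonic acid. Cytosolic phospholipase A2 (Pla2g4a) frees arachidonic acid from membrane phospholipids. The cyclooxygenases Ptgs1 and Ptgs2 convert it to prostaglandin H2, from which terminal synthases make thromboxane A2 (Tbxas1), prostaglandin D2 (Hpgds) or prostaglandin E2 (Ptges). In the other branch, 5-lipoxygenase (Alox5), helped by its activating protein (Alox5ap), makes leukotriene A4. Lta4h turns leukotriene A4 into leukotriene B4, a neutrophil attractant, and Ltc4s joins it to glutathione to give leukotriene C4, the first of the cysteinyl leukotrienes. Peritoneal macrophages are a classical source of these mediators, and Ptgs2 is known as the cyclooxygenase that inflammatory stimuli induce, whereas Ptgs1 is known as the constitutive form.

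The macrophage label was checked on 7 marker genes (Adgre1, Csf1r, Cd68, Lyz2, Itgam, Mertk and Fcgr1). All were measured, and their summed level was 14368 and 15134 CPM (counts scaled to a common library size, normalised with the TMM method) in the AGEs libraries, against 17263 and 13647 CPM in the BSA libraries. None of the 7 passed the threshold used below. The library totals were 23079245 and 24472926 counts in the AGEs group, against 17773088 and 22146761 counts in the BSA group. Over these libraries the counts of the 10 enzymes ran from 48 to 4287. Several other cell types carry eicosanoid enzymes, and their markers are given beside the results they touch.

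The genes lie on 6 mouse chromosomes, and positions are those of RefSeq on GRCm38.p6. Pla2g4a (chr1:149829618-149961290, minus strand) and Ptgs2 (chr1:150100031-150108234, plus strand) are neighbours that are transcribed away from each other. Their start sites are 138741 bases apart, and the 2 RefSeq genes annotated between them, Gm19136 and Ptgs2os, are not protein-coding. Ptgs1 (chr2:36216742-36258593, plus) and Ptges (chr2:30889471-30931020, minus) are on chromosome 2. Chromosome 6 holds Tbxas1 (chr6:38864159-39084590, plus), Hpgds (chr6:65117293-65144981, minus) and Alox5 (chr6:116410071-116461178, minus). The others are Alox5ap (chr5:149265004-149288153, plus), Lta4h (chr10:93453396-93484896, plus) and Ltc4s (chr11:50236461-50238532, minus). Alox5ap, Ltc4s, Ptgs1 and Tbxas1 each share between 144 and 268 exonic bases with a noncoding gene on the other strand, and the sources used here do not state whether the counting used the strand.

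Promoter sequences from RefSeq (GRCm38.p6) were available for 9 of the 10 genes, all but Alox5ap. Those of Ptgs1, Ptgs2 and Tbxas1 are shown, as Ptgs1 and Tbxas1 are the genes whose AGEs and BSA libraries did not overlap in CPM and Ptgs2 is the inducible counterpart of Ptgs1. Of all genes tested, 17.7% had both AGEs libraries above both BSA libraries. Each window is the 250 bases just before an annotated start, read on the plus strand, and capitals mark the motif matches named after the sequences. The windows are chr2:36230176-36230425 for Ptgs1, chr1:150099781-150100030 for Ptgs2 and chr6:38918736-38918985 for Tbxas1. Those of Ptgs1 and Tbxas1 lie inside the gene spans given above, so they precede a later annotated start than the first.
Ptgs1: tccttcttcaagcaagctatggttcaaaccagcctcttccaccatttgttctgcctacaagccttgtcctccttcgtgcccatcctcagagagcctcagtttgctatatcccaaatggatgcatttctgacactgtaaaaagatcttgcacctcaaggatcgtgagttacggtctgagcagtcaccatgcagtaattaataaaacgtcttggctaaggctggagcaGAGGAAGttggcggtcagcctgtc
Ptgs2: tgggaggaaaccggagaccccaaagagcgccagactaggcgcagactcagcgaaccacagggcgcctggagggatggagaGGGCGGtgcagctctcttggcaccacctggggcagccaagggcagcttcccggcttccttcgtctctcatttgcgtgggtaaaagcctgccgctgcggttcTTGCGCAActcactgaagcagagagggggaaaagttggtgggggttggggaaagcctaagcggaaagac
Tbxas1: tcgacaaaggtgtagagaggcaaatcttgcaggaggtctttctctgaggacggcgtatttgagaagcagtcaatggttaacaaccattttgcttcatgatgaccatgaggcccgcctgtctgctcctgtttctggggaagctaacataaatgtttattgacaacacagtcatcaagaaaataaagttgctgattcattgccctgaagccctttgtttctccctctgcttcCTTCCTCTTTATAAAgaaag

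The Ptgs2 window was rich in G and C (61.6% GC, 13 CpG dinucleotides), against medians of 52.4% and 6 over all 32851 promoter windows. It held the C/EBP palindrome TTGCGCAA at 69 to 62 bases before the start, a match found in 0.164% of all windows, and the GC box GGGCGG at 170 to 165 bases, found in 32.7%. The Ptgs1 window was less rich (48.0% GC, 5 CpG) and held neither of these, but had the PU.1 core GAGGAAG at 24 to 18 bases before the start. The Tbxas1 window (43.6% GC, 4 CpG) held the same core on the other strand, as CTTCCTC at 20 to 14 bases. Next to it lay the TATA box TATAAA, matched on both strands in overlapping positions between 13 and 6 bases before the start. The PU.1 core was found in 10.6% of all windows and the TATA box in 12.4%. Hpgds was the other enzyme with a PU.1 core (49 to 43 bases before its start). The letters were searched on both strands, as were those of the E-box CACGTG and the CRE core TGACGT, which no enzyme's window held, and a match is a description of these letters only.

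Levels of different genes were compared in TPM, the authors' transcript share, which allows for gene length. As a share, the TPM of a gene also depends on the other genes of its library. Rn7s1 and Rn7s2 together held 44.0% of all TPM in AGEs 1 and in AGEs 2, against 38.0% in BSA 1 and 46.2% in BSA 2. The leukotriene branch held the most abundant transcript: Alox5ap averaged 239.8 TPM over the 4 libraries (208 to 284 TPM) and lay at the 98.2th percentile of all listed genes. Ltc4s (mean 127 TPM) and Tbxas1 (mean 122 TPM) followed, with ranges that overlapped. Lta4h (52.2 TPM), Hpgds (36.7 TPM) and Ptgs1 (12.6 TPM) came next, each with a range clear of its neighbours. Alox5 (8.79 TPM) and Pla2g4a (7.31 TPM) overlapped in range, as did Ptges (1.94 TPM) and Ptgs2 (1.33 TPM) at the bottom. The highest mean was 179.9-fold above the lowest. The cells thus held far more transcript of the 5-lipoxygenase partner than of the lipoxygenase itself, and far more of the thromboxane and prostaglandin D2 synthases than of the inducible prostaglandin E2 synthase. This order was identical in AGEs 2, BSA 1 and BSA 2, and in AGEs 1 it differed only in that Tbxas1 stood above Ltc4s. It was given no test.

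**Figure D1:**
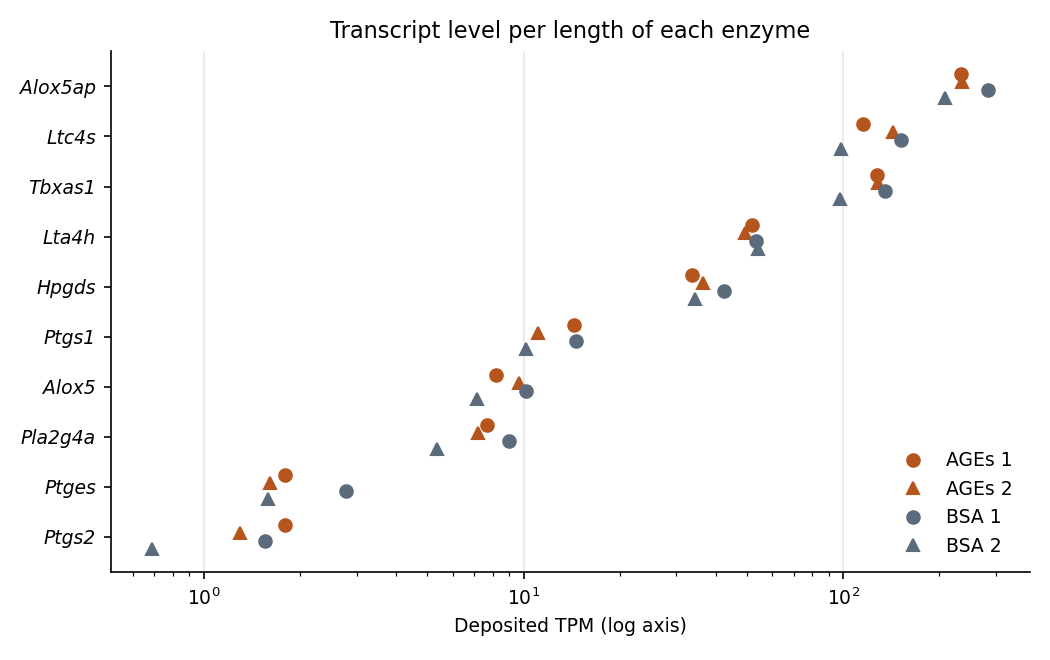
Deposited TPM of the 10 enzymes on a log axis, with circles for replicate 1 and triangles for replicate 2 of the AGEs (orange) and BSA (grey) groups. Alox5ap lies at 208 to 284 TPM and Ptgs2 at 0.689 to 1.79 TPM, and the order of the genes is nearly the same in every library.

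The comparison asked whether AGEs given in vivo altered the macrophage transcriptome. For the eicosanoid enzymes no gene passed the study's threshold, over 1.5-fold with p under 0.05 before adjustment (0 of 10), in edgeR's quasi-likelihood test. With 2 libraries against 2, an exact permutation test of 1 gene cannot go below 0.333. A smaller p rests on a model of the spread, which edgeR estimates with information shared over genes. DESeq2 and limma-voom also gave 0 of 10. Of all 14181 genes tested, 1.77% passed it. The Benjamini-Hochberg adjusted p of the enzymes, over all genes tested, lay between 0.860 and 0.997, and 0% of all genes had an adjusted p under 0.05 (5 genes with DESeq2, none of them an enzyme). An unadjusted p under 0.05 was found for 1 of the 10, Tbxas1, and for 5.64% of all genes. The log2 fold change, AGEs over BSA, was positive for 7 enzymes and negative for 3, beside 49.4% positive of all genes, from -0.21 to 0.60 with a median of 0.16, beside -0.0026 over all genes tested. The number that were positive ran from 5 without BSA 2 to 9 without BSA 1. Both AGEs libraries were above both BSA libraries for 2 of the 10, Ptgs1 and Tbxas1, and below both for 0, against 17.7% of all genes in each direction. A 95% confidence interval that held 0 was found for 9 of the 10. In bulk RNA, fewer cells of a type and less RNA per cell cannot be told apart.

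**Figure D2:**
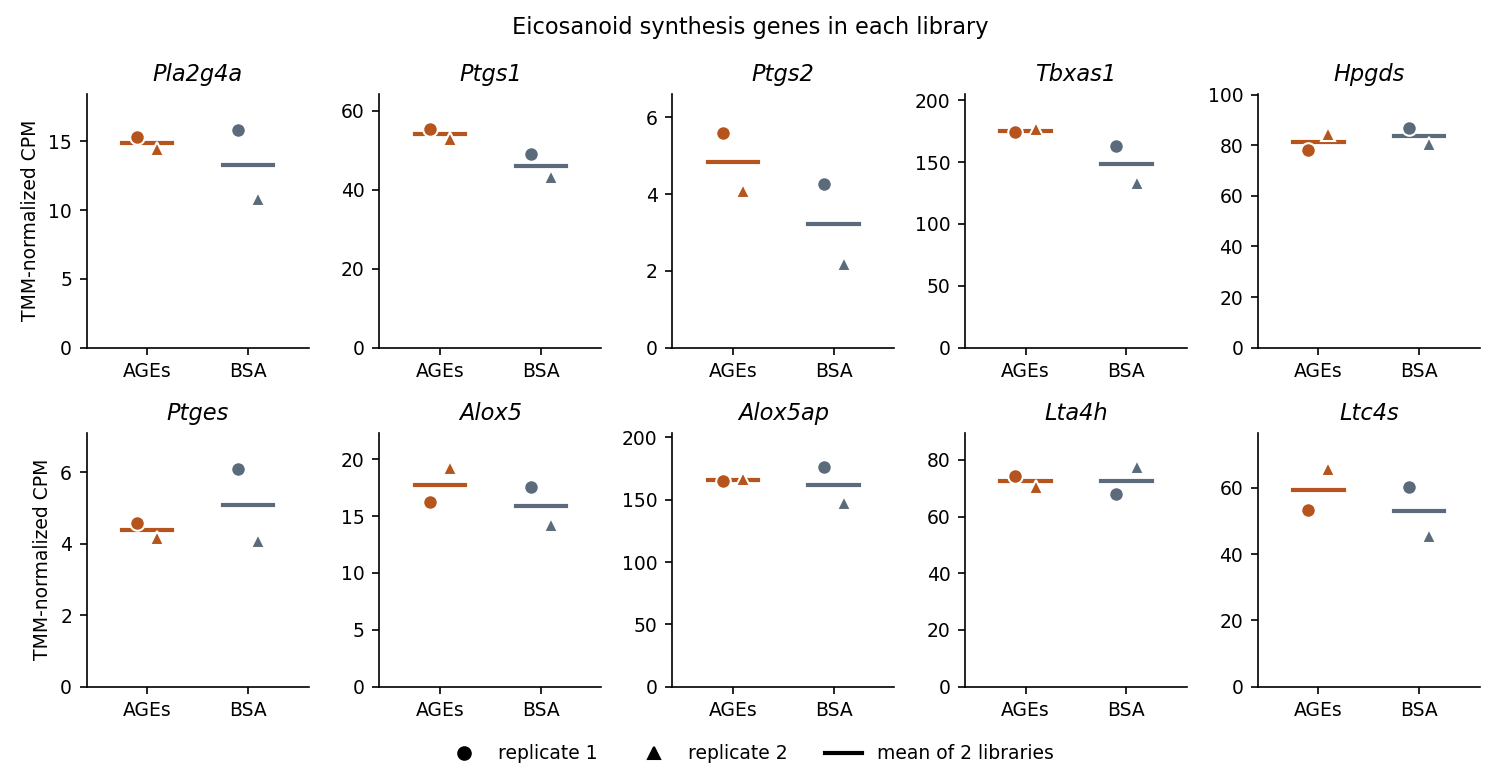
TMM-normalised CPM of each enzyme, with the AGEs libraries left of the BSA libraries, circles for replicate 1, triangles for replicate 2 and a bar at the mean of 2 libraries. Only Ptgs1 and Tbxas1 have both AGEs points above both BSA points.

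Pla2g4a, which supplies the arachidonic acid, had 351 and 350 counts in the AGEs libraries, against 286 and 238 counts in the BSA libraries. That is 15.3 and 14.4 CPM in AGEs 1 and 2, against 15.8 and 10.8 CPM in BSA 1 and 2. The AGEs libraries lay close together and inside the range of the BSA libraries. Its log2 fold change was 0.17 (SE 0.20; 95% confidence interval -0.27 to 0.60; adjusted p = 0.941 by edgeR), and it was -0.083 without BSA 2.

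Ptgs1, the constitutive cyclooxygenase, had 1269 and 1286 counts in the AGEs libraries, against 887 and 953 counts in the BSA libraries. In CPM it averaged 54.2 ± 1.74 in the AGEs libraries and 46.1 ± 4.12 in the BSA libraries (SD, n = 2 each). Both AGEs libraries (55.4 and 52.9 CPM) lay above both BSA libraries (49.0 and 43.2 CPM), by a small margin. This 1.18-fold difference (log2 0.23, SE 0.11) had a 95% confidence interval of 0.999-fold to 1.38-fold, an unadjusted p of 0.0512 and an adjusted p of 0.879 by edgeR. On the log2 scale it was 0.15 without BSA 2 and 0.32 without BSA 1. In TPM the groups overlapped, at 14.4 and 11.1 TPM in the AGEs libraries, against 14.5 and 10.2 TPM in the BSA libraries. With limma on log2(TPM + 1) the log2 difference was 0.049, beside a median of -0.067 over all genes.

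Ptgs2, the inducible cyclooxygenase, had the largest fold change of the family and also the widest spread. It had 128 and 99 counts in the AGEs libraries, against 77 and 48 counts in the BSA libraries, that is 5.59 and 4.08 CPM against 4.26 and 2.18 CPM. AGEs 1 was the highest library and BSA 2 the lowest, while BSA 1 lay above AGEs 2, so the groups overlapped. The log2 fold change of 0.60 (SE 0.36) exceeded the 1.5-fold limit, at a fold change of 1.51, but p was 0.120 and the adjusted p 0.902 by edgeR. Its 95% confidence interval ran from 0.884-fold to 2.59-fold, so lower and much higher levels in the AGEs group both lay within it. Without BSA 1 the log2 fold change was 1.14 (unadjusted p of 0.0139 by edgeR) and passed the threshold, and it was 0.19 without BSA 2 and 0.35 without AGEs 1. BSA 1 exceeded BSA 2 by 1.96-fold, a larger ratio than the fold change between the groups.

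The balance between the cyclooxygenases was on the side of Ptgs1 in every library. Ptgs1 exceeded Ptgs2 by 8.05-fold and 8.53-fold in TPM in the AGEs libraries, against 9.35-fold and 14.8-fold in the BSA libraries. The count ratio of Ptgs2 to Ptgs1 was 0.101 and 0.0770 in the AGEs libraries, against 0.0868 and 0.0504 in the BSA libraries, and the groups overlapped (exact two-sided permutation p = 0.667). Markers of resident large peritoneal macrophages (Gata6, Timd4, Icam2, Prg4, Ltbp1 and Selp, 6 of 6 measured) summed to 172 and 112 CPM in the AGEs libraries, against 162 and 88.9 CPM in the BSA libraries. The 4 libraries stood in the same order for this sum as for the CPM of Ptgs2, with AGEs 1 highest, then BSA 1, AGEs 2 and BSA 2. Of the single markers, Prg4, Ltbp1 and Selp, which made up most of the sum, stood in that order, and Gata6, Timd4 and Icam2 did not. How many of all genes stand in that order was not counted, and 4 libraries are too few to match patterns. Gata6 had 8.60 and 6.46 CPM in the AGEs libraries, against 6.13 and 4.08 CPM in the BSA libraries. Timd4 and Icam2 were highest in BSA 1, at 10.6 and 17.6 CPM. The part of these cells in the Ptgs2 values was not tested.

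Tbxas1, thromboxane synthase, had the lowest unadjusted p of the 10 enzymes. It had 3992 and 4287 counts in the AGEs libraries, against 2955 and 2945 counts in the BSA libraries. The level averaged 175.4 ± 1.54 CPM in the AGEs libraries and 148.4 ± 21.1 CPM in the BSA libraries (SD, n = 2 each). The AGEs libraries were nearly equal (174 and 176.5 CPM), and both lay above BSA 1 (163 CPM) and BSA 2 (133.5 CPM). The 1.18-fold difference (log2 0.24, SE 0.10) had a 95% confidence interval of 1.02-fold to 1.37-fold, an unadjusted p of 0.0315 and an adjusted p of 0.860 by edgeR. The difference was below the 1.5-fold limit, as was the upper end of its interval. The log2 fold change was 0.25 without AGEs 1 and 0.23 without AGEs 2, with unadjusted p-values of 0.0662 and 0.0868. It was 0.11 without BSA 2 (unadjusted p of 0.263) and 0.39 without BSA 1 (unadjusted p of 0.00129). In TPM BSA 1 was the highest library, at 127.5 and 128 TPM in the AGEs libraries, against 135 and 97.4 TPM in the BSA libraries. BSA 1 was also the library with the smallest TPM share in Rn7s1 and Rn7s2, whose part in these TPM values was not tested. Platelets are rich in thromboxane synthase and Ptgs1, and of 6 platelet markers Pf4, which macrophages also express, and Itga2b were measured, while Ppbp, Gp9, Gp1ba and Gp6 are not listed. Their sum was 112 and 109 CPM in the AGEs libraries, against 118 and 77.3 CPM in the BSA libraries, nearly all of it Pf4, and the part of platelet RNA in these values was not tested.

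Hpgds, the haematopoietic prostaglandin D2 synthase of macrophages and mast cells, had 1786 and 2050 counts in the AGEs libraries, against 1573 and 1779 counts in the BSA libraries. It had 78.0 and 84.4 CPM in the AGEs libraries, against 86.9 and 80.6 CPM in the BSA libraries. The ranges overlapped, and the log2 fold change was -0.045 (SE 0.096; adjusted p = 0.970 by edgeR). Its 95% confidence interval of 0.840-fold to 1.12-fold reached 1.5-fold in neither direction. The sign was positive without AGEs 1 (0.012), without BSA 1 (0.0066) and after a correction for GC content (0.024).

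Ptges, the inducible prostaglandin E2 synthase that works with Ptgs2, was scarce. It had 105 and 101 counts in the AGEs libraries, against 110 and 90 counts in the BSA libraries, that is 4.59 and 4.16 CPM against 6.08 and 4.08 CPM. Both AGEs libraries lay between BSA 2 and BSA 1. The fold change on the log2 scale was -0.21 (SE 0.30; 95% confidence interval -0.85 to 0.43; adjusted p = 0.950 by edgeR), and it was 0.096 without BSA 1. Ptges and Ptgs2 had point estimates of opposite sign, and their intervals overlapped.

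Tbxas1, Hpgds and Ptges are terminal synthases that compete for prostaglandin H2, and their ratios within a library do not depend on how libraries are scaled. Further terminal synthases were measured, among them Ptges3, the cytosolic prostaglandin E2 synthase, at a mean of 58.5 TPM, beside 1.94 TPM for Ptges. Ratios with these were not taken. Of 6 ratios among the enzymes, chosen after the values had been seen, 2 separated the groups. Both have Tbxas1 as numerator, whose own CPM did not overlap between the groups, so they are not 2 separate observations. Of all single genes tested, 17.7% separated the groups in each direction. The count ratio of Tbxas1 to Hpgds was 2.24 and 2.09 in the AGEs libraries, against 1.88 and 1.66 in the BSA libraries. That of Tbxas1 to Ptges was 38.0 and 42.4 in the AGEs libraries, against 26.9 and 32.7 in the BSA libraries. The exact two-sided permutation p was 0.333 for either ratio, the smallest that 2 against 2 libraries allow, and 0.667 after adjustment over the 6 ratios. On the log2 scale the difference was 0.29 for Tbxas1 to Hpgds (0.28 with TPM, and 0.20 to 0.39 with a library left out) and 0.44 for Tbxas1 to Ptges (0.46 with TPM, and 0.30 to 0.58 with a library left out). The ratio of Hpgds to Ptges overlapped between the groups, at 17.0 and 20.3 in the AGEs libraries, against 14.3 and 19.8 in the BSA libraries.

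Alox5, the 5-lipoxygenase, had 371 and 466 counts in the AGEs libraries, against 318 and 314 counts in the BSA libraries. It had 16.2 and 19.2 CPM in the AGEs libraries, against 17.6 and 14.2 CPM in the BSA libraries. AGEs 2 was the highest library and BSA 2 the lowest, with the others between them, and the log2 fold change was 0.16 (SE 0.18; adjusted p = 0.936 by edgeR). It was 0.016 without BSA 2, 0.030 without AGEs 2, 0.27 without AGEs 1 and 0.31 without BSA 1. Alox5ap, the membrane protein that presents arachidonic acid to Alox5, had 3776 and 4049 counts in the AGEs libraries, against 3184 and 3258 counts in the BSA libraries. Its AGEs libraries were nearly equal (165 and 166.7 CPM) and lay between BSA 2 (147.7 CPM) and BSA 1 (176.0 CPM). Its log2 fold change was 0.036 (SE 0.096), and the 95% confidence interval of 0.887-fold to 1.18-fold reached 1.5-fold in neither direction. The sign was negative with log2(TPM + 1) (-0.054, beside a median of -0.067 over all genes), after a correction for GC content (-0.0072) and without BSA 2 (-0.080). The count ratio of Alox5ap to Alox5 was 10.2 and 8.69 in the AGEs libraries, against 10.01 and 10.4 in the BSA libraries, and did not separate the groups.

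Lta4h, the leukotriene B4-forming hydrolase, had 1703 and 1713 counts in the AGEs libraries, against 1227 and 1709 counts in the BSA libraries. It had 74.4 and 70.5 CPM in the AGEs libraries, against 67.8 and 77.5 CPM in the BSA libraries. It was the only enzyme with less in BSA 1 than in BSA 2, and the BSA libraries enclosed both AGEs libraries. The log2 fold change of -0.0047 (SE 0.10; adjusted p = 0.997 by edgeR) was the closest to 0 of the family, and its 95% confidence interval ran from 0.856-fold to 1.16-fold. Its sign was positive after a correction for GC content (0.041). Ltc4s, the leukotriene C4 synthase, had 1219 and 1595 counts in the AGEs libraries, against 1091 and 1002 counts in the BSA libraries. It had 53.2 and 65.7 CPM in the AGEs libraries, against 60.3 and 45.4 CPM in the BSA libraries, so that AGEs 1 lay below BSA 1. For Ltc4s the log2 fold change was 0.17 (SE 0.14; 95% confidence interval -0.14 to 0.49; adjusted p = 0.928 by edgeR), with a value of -0.028 after a correction for GC content, of which its transcript has the highest content of the family at 61.0%. The ratio of Ltc4s to Lta4h, the balance between the cysteinyl leukotriene and leukotriene B4 arms, was 0.716 and 0.931 in the AGEs libraries, against 0.889 and 0.586 in the BSA libraries, and overlapped.

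**Figure D3:**
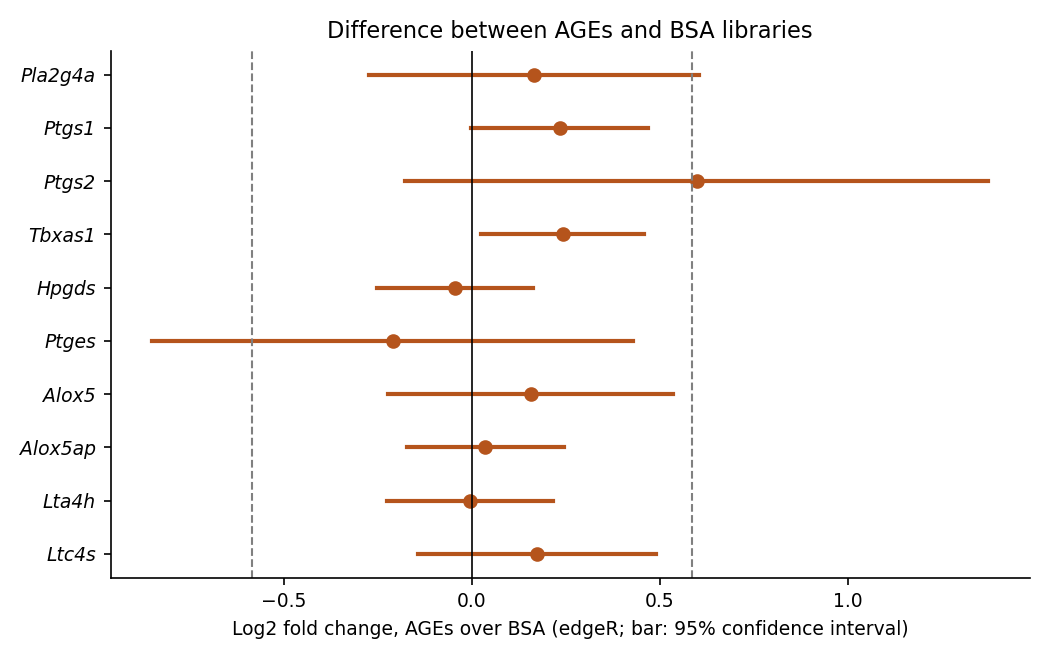
Log2 fold change of each enzyme, AGEs over BSA, from edgeR, with 95% confidence intervals as bars and dashed lines at 1.5-fold in either direction. Only the interval of Tbxas1 (0.025 to 0.46) lies clear of 0, and it does not reach 1.5-fold.

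Mast cells make leukotriene C4 and prostaglandin D2, and 6 of 10 mast cell and basophil markers were measured. They summed to 9.26 and 8.19 CPM in the AGEs libraries, against 3.70 and 7.70 CPM in the BSA libraries. Of them 2, Hdc and Gata2, passed the threshold with more in the AGEs libraries, beside 1.77% of all genes in either direction. Both had few counts: 74 and 43 against 13 and 31 for Hdc, and 33 and 28 against 4 and 13 for Gata2. The study lists Gata2 as an M2-associated macrophage gene that was higher with AGEs. The other mast cell and basophil markers did not pass, with log2 fold changes of 0.94 for Tpsb2, 0.19 for Kit, -0.00026 for Cma1 and -0.27 for Cpa3. Eosinophil markers (2 of 6 measured) summed to 3.97 and 3.99 CPM in the AGEs libraries, against 3.09 and 5.35 CPM in the BSA libraries. Neutrophil markers (3 of 7 measured), of a cell known for Alox5 and Lta4h, summed to 5.50 and 5.11 CPM in the AGEs libraries, against 6.85 and 4.58 CPM in the BSA libraries. None of the measured eosinophil or neutrophil markers passed the threshold, but Cxcr2, a neutrophil marker, had too few counts to be tested. Mesothelial and fibroblast markers (7 of 7 measured) did not pass either, with Msln and Upk3b too low to be tested. These markers summed to 104 and 57.7 CPM in the AGEs libraries, against 53.1 and 72.5 CPM in the BSA libraries. Markers of B and T cells (3 of 5 measured) summed to 53.0 and 65.8 CPM in the AGEs libraries, against 39.8 and 54.8 CPM in the BSA libraries, and 0 of them passed. The part of these cells in the enzymes' values was not tested.

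Replicates differed in both groups, and most of all in the BSA group. In the AGEs group 5 of the 10 were higher in AGEs 1, beside 51.1% of all genes tested, and the CPM ratio of AGEs 1 to AGEs 2 ran from 0.811 for Ltc4s to 1.37 for Ptgs2. In the BSA group 9 of the 10 were higher in BSA 1, beside 49.9% of all genes tested. The CPM ratio of BSA 1 to BSA 2 ran from 0.876 for Lta4h to 1.96 for Ptgs2, and was 1.49 for Ptges, 1.47 for Pla2g4a and 1.33 for Ltc4s. The fold changes moved with the BSA library that was kept. Without BSA 1, 5 of the 10 had an unadjusted p under 0.05 (Ptgs1, Ptgs2, Tbxas1, Ltc4s and Pla2g4a), beside 5.90% of all genes in that fit. Ptgs2 also passed the threshold there, beside 2.41% of all genes. With any other library left out, 0 of the 10 had such a p, beside 10.8% of all genes without BSA 2, 4.03% without AGEs 1 and 4.14% without AGEs 2. The enzymes past the threshold then numbered 0, beside 3.74%, 2.14% and 1.87% of all genes in the same 3 fits, and without BSA 2 the median log2 fold change of the 10 was 0.00079, beside 0.32 without BSA 1. Ptgs1, Ptgs2, Alox5 and Tbxas1 kept a positive sign in all 16 alternative settings, and the other 6 enzymes changed sign in at least 1.

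**Figure D4:**
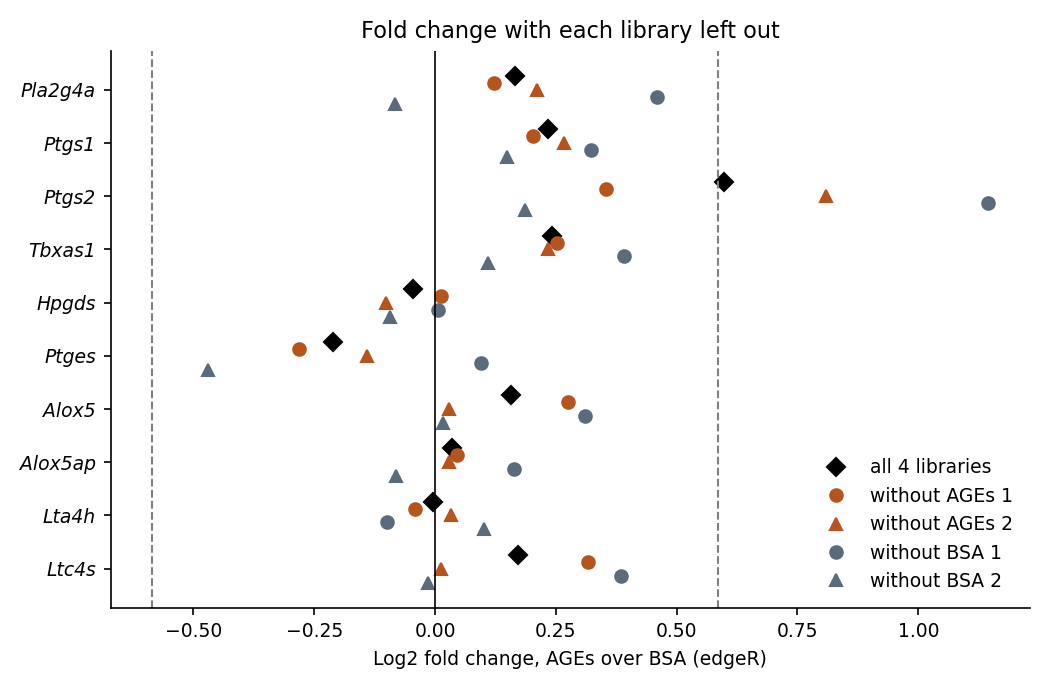
Log2 fold change of each enzyme, AGEs over BSA, with all 4 libraries (diamonds) and with each library left out in turn (orange for an AGEs library, grey for a BSA library, circles for replicate 1 and triangles for replicate 2), with dashed lines at 1.5-fold. Leaving out BSA 1 raises the value of 9 enzymes and lowers that of Lta4h, and leaving out BSA 2 does the opposite for all 10.

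Around this core, 81 further genes of eicosanoid metabolism, signalling and its control were listed by class. Of these, 55 were measured and 54 tested, Pla2g2e having too few counts. Genes that rose past the threshold numbered 0 and genes that fell 2, Hpgd and Fads2, beside 1.77% of all genes past it in either direction. Positive values were found for 34 of the 54, beside 49.4% of all genes, with a median log2 fold change of 0.044. An unadjusted p under 0.05 was found for 6 of the 54, beside 5.64% of all genes. With a library left out, 2 to 5 of the wider genes passed, and not the same ones: without BSA 2 they were Alox15, Cbr1, Hpgd, Fads1 and Lpcat2, and without BSA 1 they were Alox15, Ptgis and Mgll. The 5 classes had medians between 0.024 and 0.15, and none had more than 1 gene past the threshold.

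**Figure D5:**
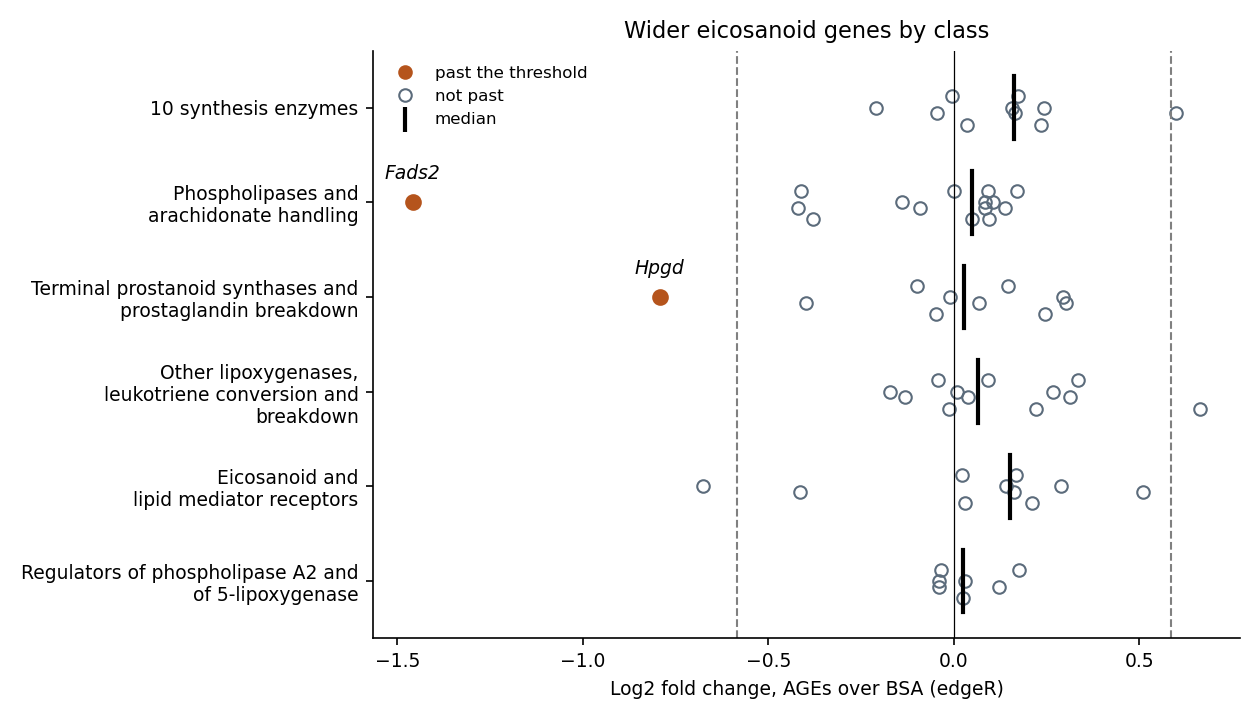
Log2 fold change, AGEs over BSA, of the 10 enzymes and of the 54 further genes tested, by class, with black bars at the class medians and dashed lines at 1.5-fold. Hpgd and Fads2 are the genes past the threshold, both lower in the AGEs libraries.

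Hpgd, the dehydrogenase that inactivates prostaglandins and so opposes the synthases above, fell in the AGEs libraries. It had 68 and 65 counts in the AGEs libraries, against 97 and 98 counts in the BSA libraries, that is 2.97 and 2.68 CPM against 5.36 and 4.44 CPM. Both AGEs libraries lay below both BSA libraries. The difference was -0.79 on the log2 scale (SE 0.31; unadjusted p of 0.0229, adjusted p = 0.848 by edgeR). It kept its sign in all 16 alternatives but missed the threshold without BSA 1 (-0.66), without AGEs 1 (-0.87) or without AGEs 2 (-0.72). Of 6 dendritic cell markers 5 were measured, and Flt3, Cd209a and Ccr7 fell past the same threshold. Their log2 fold changes were -1.34, -1.24 and -1.01 (adjusted p of 0.848, 0.879 and 0.785 by edgeR), with both AGEs libraries below both BSA libraries. Of all genes, 1.77% passed in either direction and 17.7% lay below in this way. Counts were few, at 16 and 38 against 56 and 59 for Flt3, and 11 and 12 against 25 and 21 for Cd209a. Ccr7 had 66 and 101 against 141 and 142, and the study lists it as an M1-associated macrophage gene that was lower with AGEs. Itgax and Zbtb46 did not pass, and the 5 summed to 172 and 161 CPM in the AGEs libraries, against 146 and 190.6 CPM in the BSA libraries, most of it Itgax. The part of dendritic cells in the values of Hpgd and Fads2 was not tested. The other 9 genes tested of the class of terminal prostanoid synthases and prostaglandin breakdown did not pass, with Ptges3, the cytosolic prostaglandin E2 synthase, at -0.012 (SE 0.094) and Akr1b3, an aldose reductase, at 0.15 (SE 0.11).

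Fads2, the delta-6 desaturase at the start of arachidonic acid synthesis from linoleic acid, fell as well, from very few counts. It had 13 and 6 counts in the AGEs libraries, against 21 and 24 counts in the BSA libraries. The log2 fold change was -1.46 (SE 0.59; unadjusted p of 0.0286, adjusted p = 0.860 by edgeR), and it missed the threshold with DESeq2 (unadjusted p of 0.0886), with limma on log2(TPM + 1), and without BSA 1, BSA 2 or AGEs 2 (-1.42, -1.50 and -0.98). Fads1, its partner desaturase in the same synthesis, was named after its values were seen: it had 22.6 and 22.6 CPM in the AGEs libraries, against 34.4 and 26.2 CPM in the BSA libraries. Its log2 fold change was -0.42 (SE 0.15; unadjusted p of 0.0150, adjusted p = 0.848 by edgeR), within the 1.5-fold limit. The other 14 genes tested of the class of phospholipases and arachidonate handling did not pass. Its most abundant members were Pla2g7, the platelet-activating factor acetylhydrolase, at 0.050 (SE 0.096) and Pla2g15, a lysosomal phospholipase A2, at 0.17 (SE 0.087).

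Of the other lipoxygenases and the genes of leukotriene conversion and breakdown, 0 of 12 passed and 2 had an unadjusted p under 0.05 by edgeR. Dpep2, a membrane dipeptidase that turns leukotriene D4 into leukotriene E4, had 159.5 and 158 CPM in the AGEs libraries, against 132 and 124 CPM in the BSA libraries. Its groups did not overlap, and the log2 fold change of 0.31 (SE 0.085; unadjusted p of 0.00284, adjusted p = 0.785 by edgeR) was below the 1.5-fold limit. Cotl1, a 5-lipoxygenase-binding protein, likewise lay higher in both AGEs libraries, at 460.6 and 479 CPM, against 398 and 408 CPM in the BSA libraries, a log2 fold change of 0.22 (SE 0.081; unadjusted p of 0.0165, adjusted p = 0.848 by edgeR). Alox15, the macrophage 12/15-lipoxygenase, was named after its values were seen, as its direction turned with the BSA library. It had 17.3 and 16.2 CPM in the AGEs libraries, against 27.4 and 10.6 CPM in the BSA libraries, and its log2 fold change was 0.66 without BSA 1 and -0.70 without BSA 2, past the threshold in both. Of the receptors for eicosanoids and related lipid mediators 0 of 10 passed (1 with an unadjusted p under 0.05, Ptger4), with Pparg, the nuclear receptor, at 0.14 (SE 0.11) and Cmklr1, a receptor for chemerin, at 0.17 (SE 0.11). Of the regulators of phospholipase A2 and 5-lipoxygenase 0 of 7 passed, and 0 had an unadjusted p under 0.05, with Anxa1, the glucocorticoid-induced annexin, at 0.12 (SE 0.10) and Mapkapk2, a kinase that phosphorylates 5-lipoxygenase, at -0.034 (SE 0.087).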

How the data were processed

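The study sequenced ribosomal RNA-depleted total RNA of 4 libraries (stranded kit, paired ends). Per its methods and the labels, the authors used HISAT2 2.1.0 to map reads to mm10 (GRCm38) and StringTie 2.1.3b to compute TPM and FPKM; for the counting tool, the use of strand and the DESeq2 version, nothing is given in the sources used here. Deposited per gene are read counts, TPM and FPKM, and log2 normalized values with log2 group means. It also holds the authors' own comparison, which was not used: fold changes, a signal column of mean normalized counts, standard errors, the Wald score, and p-values before and after adjustment. The counts were tested, the authors' TPM gave levels between genes and an alternative test, and FPKM and log2 values were not used.

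Counts were fitted in R 4.3.3 with edgeR 4.0.16 (TMM, filterByExpr, robust glmQLFit, glmQLFTest, AGEs over BSA, no block), over 14181 genes, with Benjamini-Hochberg adjustment over all of them. The standard error was taken from the log2 fold change and the F statistic, as their quotient after a square root of F. The common biological coefficient of variation was 12.9%, and library totals were 17773088 to 24472926 counts. Ptgs2 and Ptges, with the fewest counts of the enzymes and large differences between BSA libraries, had the widest intervals. Every listed gene has at least 1 count in every library, so genes not listed were not analysed here. Alternatives were DESeq2 1.42.0, limma-voom (limma 3.58.1), RLE, upper quartile and library size scaling, no filter, a minimum of 50 counts in 2 libraries, a replicate block, a GC correction, both together, leaving out each library, limma on log2(TPM + 1) and log2(TPM + 0.1), the adjusted p and a fold limit of 2. The fits were tested on simulated counts. All 10 enzymes are named, and of each wider class the genes past the threshold and the 2 with the highest mean TPM; Fads1, Alox15, Ptgis, Ptger1, Ptger4 and the genes listed for left-out libraries were added after their values were seen. The members, lists and tests were chosen with earlier results of these data known. Of the gene IDs, 15534 of 15575 matched RefSeq, the source of coordinates and promoters, while GENCODE gave the exon overlaps and GC content.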

Additional observations from a re-analysis of the deposited data

How the results depend on the processing

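Of 160 log2 fold changes of the 10 enzymes over 16 alternative settings, 139 kept their sign and their side of the threshold, 19 had the opposite sign and 2 newly passed it, and no enzyme had an adjusted p under 0.05 in any of them. Enzymes past the threshold numbered 0 in every setting but 2: 1 (Ptgs2, 0.71) with a replicate block and a GC correction together, and 0 to 1 with a library left out. The sources used here do not state whether samples of the same replicate number were paired. The correlation of deviations of AGEs 1 with BSA 1 was 0.028 over the genes tested. This showed no strong shared replicate effect, and 1 such value cannot exclude pairing. With the replicate block alone 0 of the 10 passed, and 131 of all genes were higher and 133 lower past the threshold, beside 117 and 134 without it. Values of opposite sign were, after the GC correction, -0.0072 for Alox5ap, 0.041 for Lta4h, -0.028 for Ltc4s and 0.024 for Hpgds; with the replicate block and GC correction, -0.0013, 0.045, -0.013 and 0.023 for the same genes; for Alox5ap -0.054 with log2(TPM + 1) and -0.054 with log2(TPM + 0.1); and for Lta4h 0.00078 with no filter. With a library left out the ranges were -0.080 to 0.16 for Alox5ap, -0.10 to 0.10 for Lta4h, -0.014 to 0.39 for Ltc4s, -0.47 to 0.096 for Ptges, -0.10 to 0.012 for Hpgds and -0.083 to 0.46 for Pla2g4a. Wider genes past the threshold numbered 2, and 1 with DESeq2, 1 with a minimum of 50 counts in 2 libraries, 1 with log2(TPM + 1), 1 at a fold limit of 2, 0 by the adjusted p, and 2 to 5 with a library left out. The highest of these, 5, was without BSA 2, where 311 of all genes were higher and 232 lower past the threshold. Over all genes the counts were 67 higher and 83 lower with DESeq2 (5 with an adjusted p under 0.05), 64 and 63 with at least 50 counts, 97 and 165 with log2(TPM + 1), 173 and 291 with log2(TPM + 0.1), 82 and 128 after the GC correction, known for 13153 of the genes tested, 151 and 162 with no filter, and 178 and 170 without BSA 1. The causes of these moves were not tested, except that leaving out a library leaves its group 1 library, assumed to vary like the others. Precision was lowest for Ptgs2 and Ptges, the enzymes with the fewest counts, with 95% confidence intervals of 0.884-fold to 2.59-fold and 0.555-fold to 1.35-fold.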

Other observations

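Ptger1, a prostaglandin E2 receptor and one of the genes tested among the receptors, was named after its values were seen. It had 1 and 81 counts in AGEs 1 and 2, against 42 and 49 counts in BSA 1 and 2, so that the AGEs libraries lay on either side of both BSA libraries. Ptgis, prostacyclin synthase, had 17.9 and 11.1 CPM in the AGEs libraries, against 14.7 and 9.02 CPM in the BSA libraries. This is the order of libraries of Ptgs2 and of the summed resident large macrophage markers, though not of each marker. Ptgis too was named after its values were seen, and how many of all genes share this order was not counted. The part of resident macrophages in the Ptgis values was not tested.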
